A study of Mus musculus with 6 samples.

Results

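Polycomb group genes encode the subunits of 2 families of chromatin complexes, of which 10 members were followed here, of 28888 genes with a row in the deposited signal table. The members were the rows named BMI1, EZH1, EZH2, EED, SUZ12, RNF2, RING1, CBX2, CBX7 and PHC1, and all 10 were found, each with 1 row. They are written below with the mouse symbols, Bmi1 to Phc1. Each was read in LT-HSC, the long-term blood-forming stem cells, sorted from bone marrow of male mice 2 months old and of the strain labelled C56 Bl/6. One group had undergone sex steroid ablation (SSA) 2 days earlier, and the control group had undergone a sham operation. Each group had 3 arrays, and neither the way of ablation nor the sorting gate is stated in the labels. Nothing in the labels says that the arrays came from separate animals or whether animals were pooled, so a p-value here covers the spread among 3 samples a group, part of which may be technical.

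Polycomb repressive complex 2 (PRC2) places methyl groups on lysine 27 of histone H3. Its core holds a catalytic subunit, Ezh1 or Ezh2, with Eed, which binds the finished mark, and Suz12, which holds the complex together. Polycomb repressive complex 1 (PRC1) attaches ubiquitin to histone H2A through the ligases Ring1 or Rnf2, paired with a Pcgf protein such as Bmi1. In its canonical form it also holds a Cbx protein, whose chromodomain binds the PRC2 mark, and a Phc protein, which lets complexes cluster. In mouse blood, Bmi1 is needed for adult stem cells to renew themselves, and it keeps the cell cycle inhibitor locus Cdkn2a silent. Cbx7 is known as the Cbx protein of self-renewing blood stem cells.

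Of these members 9 had an entry in the RefSeq promoter table of build GRCm38.p6, and Cbx2 had none. The stretches of Ezh2, Bmi1 and Cbx7, from 230 bases before to 20 bases after the transcript start of that table, are shown because Ezh2 holds letters of the cell cycle factor E2F and because Bmi1 and Cbx7 had opposite profiles over the arrays. They lie at chr6:47595011-47595260 on the minus strand, chr2:18676788-18677037 on the plus strand and chr15:79932627-79932876 on the minus strand. Capitals mark E2F letters (TTTGGCGC or TTTCGCGC), the E-box (CACGTG) and the CCAAT box (CCAAT), each searched on both strands.
Ezh2: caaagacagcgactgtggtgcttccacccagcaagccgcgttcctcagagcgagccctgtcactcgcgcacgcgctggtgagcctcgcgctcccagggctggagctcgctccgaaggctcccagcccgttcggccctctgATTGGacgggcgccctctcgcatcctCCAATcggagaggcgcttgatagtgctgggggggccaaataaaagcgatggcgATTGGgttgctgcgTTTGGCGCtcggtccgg
Bmi1: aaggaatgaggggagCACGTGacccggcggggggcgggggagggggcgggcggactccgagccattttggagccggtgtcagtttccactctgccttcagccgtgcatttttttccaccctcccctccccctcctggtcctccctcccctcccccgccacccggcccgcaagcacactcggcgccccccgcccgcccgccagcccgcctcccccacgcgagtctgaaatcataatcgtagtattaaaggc
Cbx7: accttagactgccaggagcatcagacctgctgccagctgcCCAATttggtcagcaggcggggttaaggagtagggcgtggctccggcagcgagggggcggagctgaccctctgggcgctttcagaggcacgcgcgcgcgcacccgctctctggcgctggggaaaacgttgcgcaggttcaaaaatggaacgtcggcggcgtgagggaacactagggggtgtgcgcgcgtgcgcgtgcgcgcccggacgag

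The E2F letters stood in the window of Ezh2 and of no other of the 9 members, with the first base at position 4 after the start, and in 0.81% of all 32851 promoter windows. The E-box stood in the window of Bmi1 and of no other member, and in 7.15% of all windows. The CCAAT box stood in the windows of Ezh2, Eed, Suz12 and Cbx7, and in 37.41% of all windows. In Eed its first base was at position 26 after the start, which is past the end of the stretch defined above. The window searched in Eed therefore reached further than that stretch. The limits of the searched windows are not given here, so the counts and percentages cannot be tied to that stretch. A full androgen or oestrogen response element stood in none of the 9 windows. Such elements are rare, in 0.01% and 0.07% of all windows, and no match says only that these letters are not in the window.

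The signals were brightness values of Illumina MouseWG-6 v2.0 bead arrays, corrected for background and normalised here to a log2 scale, on which 1 unit is a doubling. Values of different genes come from different probes and are not compared with each other. The median raw signal ran from 132.3 to 145.3 over the arrays, with a background of 126.0 to 137.5 and a background SD of 7.9 to 9.4. The upper quartile of the signal above background ran from 66.0 on sham 2 to 109.2 on sham 3. On the first principal component, with 45.8% of the variance, sham 2 lay farthest out at 41.5 and sham 1 at -17.0 lay between SSA 1 and SSA 2. Of 9 LT-HSC markers 8 passed the filter on dim genes, among them Kit, Slamf1 and Mecom. Procr, which encodes the stem cell marker EPCR, was not detected on any array. No macrophage marker of 4 passed, but markers of other blood cells did. These were 7 of 8 for neutrophils and monocytes, 5 of 6 erythroid, 4 of 4 eosinophil and 3 of 3 megakaryocyte markers. For B cells 3 of 5 passed, and for T and NK cells 1 of 4. The array numbers in the headers place every SSA array before every sham array, and that order cannot be told apart from SSA.

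No member was called between SSA and sham. Of the 10 members 8 passed the filter on dim genes, for which 3 or more of the 6 arrays had to show a detection p below 0.05. Of these 8, 4 had a higher and 4 a lower mean after SSA. Their median log2 difference, SSA minus sham, was 0.045, against 0.0085 for all 10821 genes kept. In limma, with Benjamini-Hochberg adjustment over all kept genes, 0 of the 8 had an adjusted p under 0.05, with values from 0.563 to 0.976. Over all kept genes limma called 1, or 0.00924%, which was the eosinophil ribonuclease gene Ear6. At an unadjusted p under 0.05 there was 1 member, Cbx2, against 8.48% of all kept genes. Cbx2 was also the only one of the 8 in which the groups did not overlap, against 14.6% of all kept genes, so the share among the members was close to the background. In sorted cells measured in bulk, fewer cells of a type and less RNA per cell cannot be told apart.

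**Figure D1:**
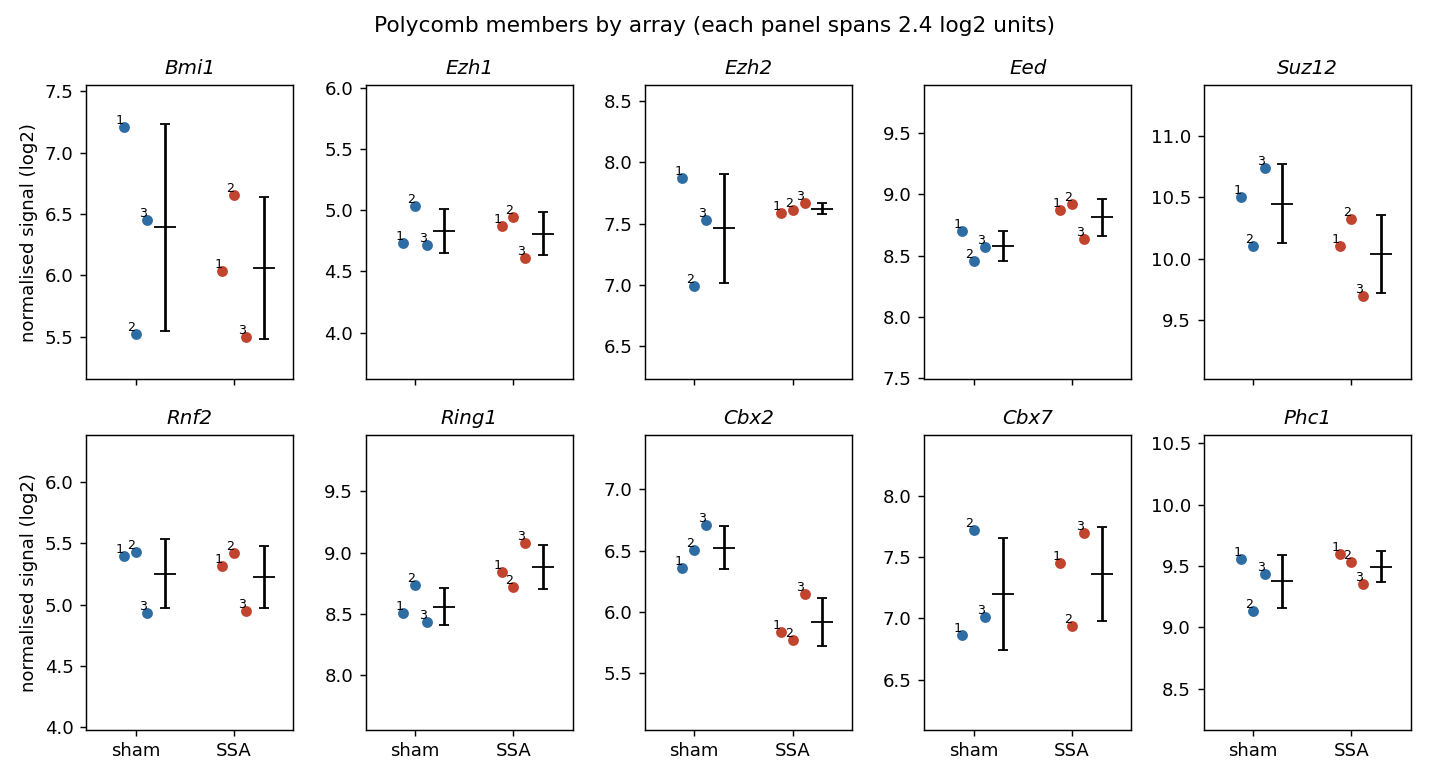
Normalised signal (log2) of the 10 members on each array, with sham in blue and SSA in red, numbered by replicate; bars are mean ± SD of 3 arrays, and every panel spans the same number of log2 units. Bmi1 runs from 5.50 to 7.21 with both groups wide, and the 3 SSA arrays of Cbx2 lie below the 3 sham arrays.

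Among the catalytic subunits of PRC2, Ezh2 was measured well above background and Ezh1 was not. Ezh1, the methyltransferase that is known to predominate in resting cells, had raw signals of 145.0, 150.8 and 136.1 on the SSA arrays. They were 138.2, 139.2 and 146.3 on the sham arrays, which is 0.5 to 1.8 background SDs above the background mean. It was detected on none of the 6 arrays, so both groups have only a bound and no fold is given.

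Ezh2, the methyltransferase known to be abundant in dividing cells, had log2 values of 7.59, 7.62 and 7.67 after SSA and 7.87, 6.99 and 7.53 after sham. The 3 SSA arrays lay close together, while sham 2 was the lowest array and sham 1 the highest, so the groups overlapped. Ezh2 failed the filter, since its detection score was past the threshold on 2 sham arrays and no SSA array, although its raw signal of 215.1 to 360.4 stood 10.7 to 28.9 background SDs above the background mean. With a filter on the signal in place of the detection score, limma gave a log2 fold change of 0.16 ± 0.22 (SE), with a 95% interval of -0.36 to 0.68 and an adjusted p of 0.845. Under that filter limma called 0.00966% of 10349 genes. Without sham 2 the difference was -0.077, so its direction rested on that array. Because Ezh1 was not above background, the test of this pair within arrays is void, and no value of it is given here.

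The scores of Ezh2, Ezh1, Suz12 and Phc1 differed in kind from those of the other 6 members. Most rows of the table, 23151, had scores that were whole steps of 1/936 on every array within 0.006 of a step, as the rank of a signal among that number of control beads would give. The remaining 7623 rows, with these 4 members, had scores between the steps. On each array 409 to 464 rows were bright, above the median signal of all detected rows there, and yet not detected, and every one of them was a row with scores between the steps. Phc1 shows it best: on sham 3 it had its highest raw signal, 1022.9, and its lowest score, 0.887. For these rows the raw signal is therefore given beside the score.

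**Figure D2:**
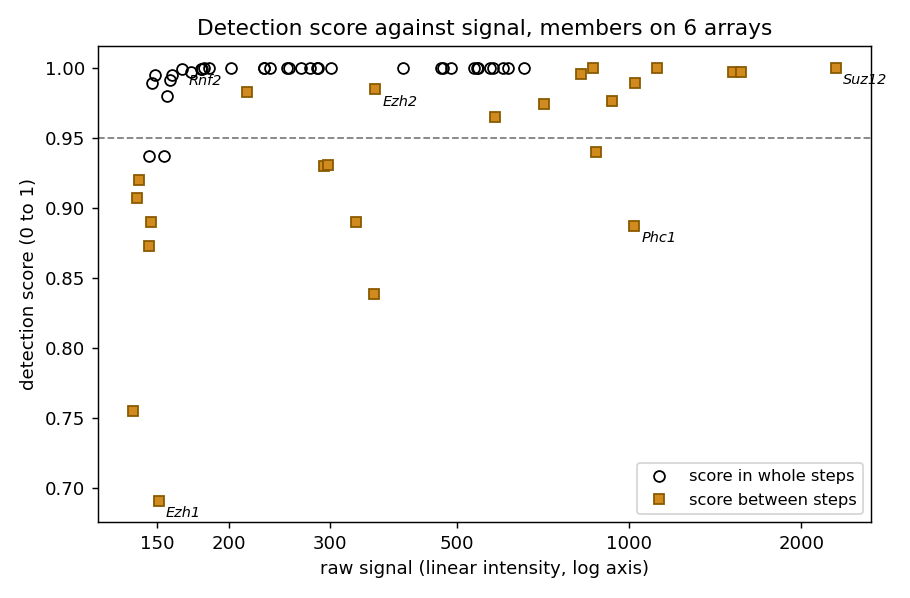
Detection score against raw signal (linear intensity on a log axis) for each member on each of 6 arrays, with the dashed line at the threshold. Open circles are the 6 members with scores in whole steps, and filled squares are Ezh1, Ezh2, Suz12 and Phc1; Ezh2 and Phc1 fall below the line on some arrays, at signals where every circle lies above it.

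The 2 members that partner the PRC2 enzymes had means on opposite sides. Eed, the subunit that reads the methyl mark, had log2 values of 8.87, 8.92 and 8.63 after SSA and 8.70, 8.46 and 8.57 after sham. SSA 3 lay among the sham arrays, and the log2 fold change was 0.23 ± 0.15 (SE), with an adjusted p of 0.656 in limma. Suz12, the scaffold subunit, had values of 10.11, 10.32 and 9.69 after SSA and 10.50, 10.10 and 10.74 after sham. SSA 3 was the lowest array and sham 3 the highest, while SSA 2 lay above sham 2. Its log2 fold change was -0.41 ± 0.23 (SE), with a 95% interval of -0.93 to 0.11 and an adjusted p of 0.6105 in limma. Without SSA 3 it was -0.23, and without sham 3 it was -0.26.

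Of the ubiquitin ligases of PRC1, Ring1 was the member with the second lowest unadjusted p. Its log2 values were 8.84, 8.72 and 9.07 after SSA and 8.51, 8.73 and 8.44 after sham. SSA 2 lay just below sham 2, so the groups overlapped, and limma gave 0.32 ± 0.16 (SE) with an adjusted p of 0.601. Rnf2, the paralogue that carries most of the ligase activity in mouse embryonic stem cells, was dim, with raw signals of 155.9, 165.6 and 144.9 after SSA and 158.9, 146.8 and 153.9 after sham. On the log2 scale these were 5.32, 5.42 and 4.95 against 5.40, 5.43 and 4.93, so the groups overlapped throughout. Its scores passed the threshold on 2 arrays of each group. The log2 fold change was -0.026 ± 0.20 (SE), with a 95% interval of -0.49 to 0.44 and an adjusted p of 0.976 in limma. The within-array difference Rnf2 minus Ring1 was -3.65 ± 0.43 (SD, n = 3) after SSA and -3.30 ± 0.20 after sham, and an exact permutation test gave p = 0.3, or 0.45 adjusted over the 3 paralogue pairs, the void one included. The shift of -0.35 was -0.11 without SSA 3. Rnf2 lay only 1.6 to 3.7 background SDs above the background mean, so a change in it could be hidden. The shift therefore sets Ring1 against a value near background and does not measure unequal change of the 2 genes. With 3 arrays against 3 this test cannot go below 0.1.

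Cbx2, a chromodomain subunit of canonical PRC1 that compacts chromatin, had raw signals of 171.7, 178.9 and 181.4 after SSA and 202.2, 184.9 and 253.3 after sham. On the normalised log2 scale these were 5.83, 5.78 and 6.15 against 6.36, 6.50 and 6.71. Every SSA array lay below every sham array, which was so in 6.09% of all kept genes. The means were 5.92 ± 0.20 and 6.52 ± 0.17 (SD, n = 3). The log2 fold change was -0.61 ± 0.17 (SE), with a 95% interval of -0.99 to -0.22. In limma its unadjusted p was 0.007 and its adjusted p 0.563, so it did not pass.

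The signal of Cbx2 lay 4.4 to 12.3 background SDs above the background mean, and its bead standard error was 6.63 to 9.45 on the raw scale. On the raw scale SSA 3 and sham 2 differed by less than those errors. The size of the difference depended on how the background was handled. It was -0.24 with no background correction and -0.066 with the background fitted by neqc of limma. Leaving out any 1 array gave -0.51 to -0.72.

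Markers of dividing cells and of some other blood cells had lower means in the same comparison, and others did not. Of 13 proliferation markers 11 passed the filter and all 11 had a lower mean after SSA. Their median difference was -0.55 on the log2 scale, with a summed normalised signal of 8387 to 9027 on the SSA arrays and 10162 to 12642 on the sham arrays. Top2a, a DNA topoisomerase of mitosis, stood at -0.94 ± 0.24 (SE). Mki67, which failed the filter, had means of 8.13 after SSA and 8.82 after sham, and Ccna2 was detected on no array. All 4 eosinophil markers were lower, with summed signals of 341 to 1345 against 2685 to 3483. The neutrophil and monocyte markers, of which 7 of 8 passed, all had lower means, with summed signals of 5940 to 7660 against 7510 to 14907 that overlapped. The 5 erythroid markers that passed also had lower means, with a median of -0.45 and sums that overlapped. B cell markers had higher means in 3 of 3 that passed, with a median of 0.37, and megakaryocyte markers in 2 of 3, with a median of 0.045. The 1 marker of T and NK cells that passed, Nkg7, stood at -0.51, while Cd3e, Cd3g and Cd3d were detected on no array. Of the 8 LT-HSC markers that passed, 6 had a higher and 2 a lower mean after SSA, with a median of 0.20.

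The list with the largest median difference was that of the immediate-early genes, which cells switch on within minutes of handling or stimulation. It also held the heat shock genes Hspa1a and Hspa1b, which are counted among the 9 and the 7 below. Of 12 listed, 9 passed the filter and all 9 had a lower mean after SSA, with a median of -2.50 on the log2 scale. Of the 9, 7 had an unadjusted p under 0.05 in limma, against 8.48% of all kept genes. Their summed signals after SSA were 4098, 16376 and 2958, against 8908, 42300 and 51021 after sham, and the groups overlapped through SSA 2 and sham 1. In each of the 9 genes the groups overlapped too. By contrast, every SSA array lay below every sham array in all 4 eosinophil markers and 8 of the 11 proliferation markers, against 6.09% of all kept genes. The lists were chosen with earlier results of these data known, and Ear6, the 1 gene called, is among the eosinophil markers. These shares are therefore a description and no test. The part of other cells, of dividing cells and of handling in the values of Cbx2 was not tested.

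Cbx7, the other chromodomain member, had log2 values of 7.45, 6.94 and 7.69 after SSA and 6.86, 7.72 and 7.01 after sham. Sham 2 was the highest array and sham 1 the lowest, so the sham arrays spanned all of the SSA arrays. Limma gave 0.16 ± 0.28 (SE), with a 95% interval of -0.48 to 0.80 and an adjusted p of 0.882. It was 0.42 without sham 2 and -0.0052 without sham 1. The within-array difference Cbx2 minus Cbx7 was -1.62, -1.17 and -1.55 after SSA and -0.50, -1.22 and -0.31 after sham. Sham 2 lay among the SSA arrays, and the shift of -0.77 had an exact permutation p of 0.2, or 0.45 adjusted over the 3 pairs. With the background fitted by neqc the shift was -0.10.

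Phc1, a subunit that joins PRC1 complexes through its SAM domain, had log2 values of 9.60, 9.53 and 9.35 after SSA and 9.56, 9.14 and 9.44 after sham. The groups overlapped, and limma gave 0.12 ± 0.16 (SE) with an adjusted p of 0.852. Sham 2 was the lowest array, and without it the difference was -0.0025.

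**Figure D3:**
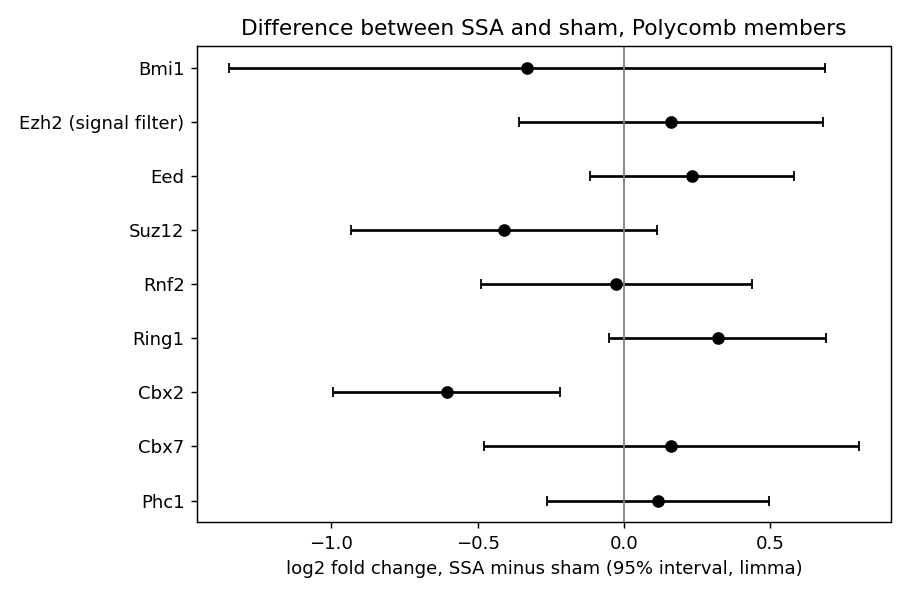
Log2 fold change, SSA minus sham, of the 9 members with a fitted value; bars are 95% intervals from limma, unadjusted, and Ezh2 comes from the fit with a filter on the signal. The interval of Cbx2 lies wholly below 0, from -0.99 to -0.22, and the other 8 cross 0.

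Bmi1 varied more within the groups than between them. Its raw signal, with the bead standard error, was 179.4 ± 5.06, 230.2 ± 10.97 and 158.0 ± 4.78 on the SSA arrays. On the sham arrays it was 267.8 ± 8.79, 148.8 ± 5.47 and 230.9 ± 9.84. SSA 3 and sham 2 were low in their groups, and SSA 2 and sham 1 were high, by more than the bead error. On the normalised log2 scale the values were 6.03, 6.66 and 5.50 after SSA and 7.21, 5.52 and 6.45 after sham. The range was 3.27-fold over the 6 arrays. SSA 3 and sham 2 lay 3.3 and 2.7 background SDs above the background mean, against 17.5 on sham 1. That range therefore rests partly on signals near background, as does the within-group SD. The within-group SD was 0.724, larger than in 97.9% of all kept genes, whose median was 0.228. Limma gave a log2 fold change of -0.33 ± 0.44 (SE), with a 95% interval of -1.35 to 0.69 and an adjusted p of 0.840. Without sham 1 it was 0.078, so the direction rested on that array, and without sham 2 it was -0.77. With the neqc background it was -0.050. That interval reaches from a fall to a rise, so at this spread the values do not show that Bmi1 was unchanged.

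The arrays that were low in Bmi1 were high in Cbx7. Over the 6 arrays Pearson's r between them was -0.96 (Spearman -0.94), and after the group means were removed it was also -0.96. Within each group of 3, the order of the arrays in Bmi1 was the reverse of that in Cbx7. Suz12 and Ring1 had r = -0.98, and Eed and Cbx2 had r = -0.88. These 3 pairs were picked as the strongest of 45 member pairs, the points share arrays and their normalisation, and 6 points make strong values common, so they are a description. With the arrays scaled by their medians in place of quantile normalisation, r stayed at -0.93 for Bmi1 and Cbx7, while it was -0.13 for Suz12 and Ring1 and 0.04 for Eed and Cbx2.

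**Figure D4:**
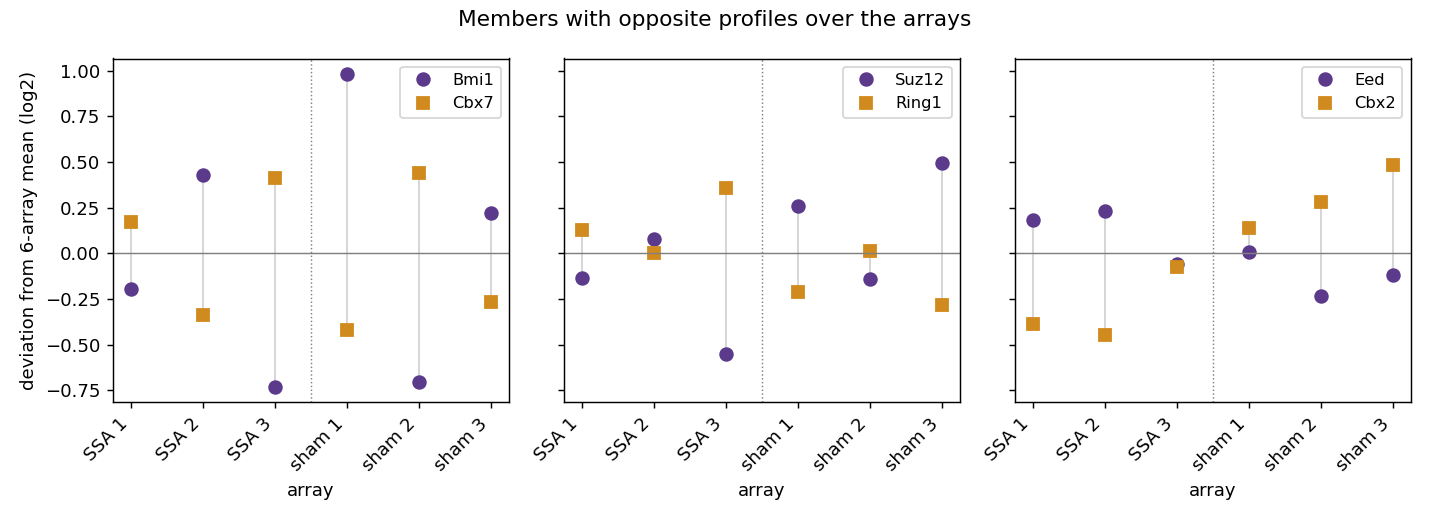
Deviation of the normalised log2 signal from the mean of the 6 arrays, for the 3 member pairs with the strongest opposite profiles; grey lines join the members of a pair on 1 array and the dotted line parts SSA from sham. Bmi1 is low and Cbx7 high on SSA 3 and sham 2, and the reverse holds on SSA 2 and sham 1.

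SSA 3 and sham 2 were also low together in some other Polycomb genes. The summed normalised signal of the 5 measured further PRC2 genes was 1423 on SSA 3 and 1403 on sham 2, and 2045 to 2593 on the other 4 arrays. For the 3 measured antagonists it was 1954 and 1565, and 2304 to 2985 on the others. This was not so of the other lists: the 14 measured PRC1 genes summed to 5550 and 5852, against 5776 to 6394, and the 6 genes of the deubiquitinase complex PR-DUB to 3204 and 3514, against 3391 to 3894. Within these PRC2 genes, Phf19 was highest on sham 2, and Aebp2 was not low there, at 7.48 against 7.39 on SSA 1 (log2). Among the antagonists, Usp16 was not low on sham 2, at a log2 value of 8.44 against 8.15 to 8.29 on the SSA arrays. Kdm6b, a demethylase that removes the PRC2 mark, had log2 values of 7.06 on SSA 3 and 7.02 on sham 2, and 7.59 to 7.99 on the others. The erythroid markers, of which 5 of 6 passed, were brightest on the same arrays, with summed signals of 11442 on SSA 3 and 20359 on sham 2, and 4095 to 9391 on the others. Megakaryocyte markers, 3 of 3, were likewise at 3251 and 4687 there and at 2019 to 2821 on the others. SSA 3 and sham 2 were also the dimmest arrays, with an upper quartile above background of 73.9 and 66.0, against 78.1 to 109.2. The part of these cells and of brightness in the values of Bmi1 and Cbx7 was not tested.

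Among 6820 kept genes with a current symbol, those with profiles most like Bmi1 over the 6 arrays were BC085271, Hnrnpa2b1 and Pik3r1, at Pearson's r of 0.997, 0.993 and 0.988. For Cbx7 they were Gtf3a, Zdhhc1 and Mfsd3, at 0.994, 0.988 and 0.987. For Ezh2, set against 6821 genes, they were Anxa4, Irak4 and G3bp1, at 0.991, 0.982 and 0.978. With 6 arrays such values come with the size of the search, and 1.74% to 2.04% of the genes searched had r over 0.9.

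The wider Polycomb system was read from a list of 41 further genes, of which 28 passed the filter. Of these, 20 had a lower and 8 a higher mean after SSA. The median log2 difference was -0.12, while 51.4% of all kept genes were higher. Limma called 0 of the 28 at an adjusted p under 0.05, with values from 0.563 to 0.998. At an unadjusted p under 0.05 in limma there were 3, or 10.7%, close to the 8.48% of all kept genes. The groups did not overlap in 6, or 21.4%, against 14.6% of all kept genes, with 5 lower and 1 higher after SSA.

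All 5 measured further PRC2 genes had lower means after SSA. Phf19, which brings PRC2 to genes that carry an active mark, had log2 values of 5.55, 5.60 and 5.80 after SSA and 6.02, 7.06 and 6.64 after sham. Every SSA array lay below every sham array, and the log2 fold change was -0.92 ± 0.26 (SE), with an unadjusted p of 0.00726 and an adjusted p of 0.563 in limma. As for Cbx2, it was much smaller with the background fitted by neqc, at -0.10. Aebp2, Rbbp4, Rbbp7 and Mtf2 stood at -0.25, -0.12, -0.16 and -0.0045, with groups that overlapped. Jarid2, which helps to recruit PRC2, was detected on no array in either of its rows.

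Of 19 further PRC1 genes 14 passed the filter, 10 with a lower mean and 4 with a higher one. Bcor, the scaffold of a variant PRC1, stood at -0.49 ± 0.20 (SE), and Cbx8, a chromodomain subunit, at -0.33 ± 0.17. For both, every SSA array lay below every sham array. Yaf2, a subunit of variant PRC1, stood at 0.42 ± 0.17, with every SSA array above every sham array, which was so in 8.47% of all kept genes. None passed limma, at adjusted p of 0.569, 0.601 and 0.569. With the neqc background they stood at -0.21, -0.047 and 0.085, and Cbx8 stood at -0.18 without SSA 2. Among the Pcgf genes, whose products take the place of Bmi1 in other forms of PRC1, Pcgf1, Pcgf3, Pcgf5 and Pcgf6 stood at -0.18, -0.12, 0.020 and -0.18, and Pcgf2, the closest relative of Bmi1, was detected on no array.

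Of the genes that act against Polycomb marks, Usp16, which removes ubiquitin from histone H2A, stood at -0.27 ± 0.13 (SE), and Asxl1, the partner of the deubiquitinase Bap1, at -0.38 ± 0.20. They did not pass limma, at adjusted p of 0.598 and 0.601. Asxl1 stood at -0.60 without sham 1 and at -0.25 without sham 2, and with the neqc background Usp16 and Asxl1 stood at -0.16 and -0.18. The demethylase gene Kdm6b stood at 0.18 ± 0.28, with an adjusted p of 0.872. None of the 4 known Polycomb targets passed the filter. Cdkn2a, the locus that Bmi1 keeps silent, had raw signals of 128.2 to 141.9 and was detected on 1 array of 6, so a change in it was not detectable here. Cdkn2b and Pax5 were detected on no array, and Ebf1 on 1.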

How the data were processed

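The authors deposited raw intensity values, 1 per gene name and array, exported with GenomeStudio 1.8.0 without normalization, per the file headers. They also deposited a detection score, which was used as 1 minus a detection p, and bead numbers and bead SDs. A second deposited table equalled the raw intensity minus 1 constant per array, within 0.1, and served as an alternative.

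Background mean and SD were read for each array from rows with scores in whole steps, at a detection p of 0.45 to 0.55 and of 0.14 to 0.18. The normexp signal with these values plus an offset of 16 was quantile-normalised and taken to log2 (limma 3.58.1, R 4.3.3). The neqc fit was not the main setting because it gave a background SD of 194.9 to 302.7. Row names were matched to symbols of GRCm38.p6 (15991 current, 5826 older, 119 several, 8838 none), and the brightest row stood for a gene. SSA and sham were compared by lmFit and eBayes, with group as the only term, two-sided. The fit was tested on simulated data. Fold changes understate changes of dim genes. For arrays, their number limits the precision.

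The members, lists, tests and alternatives were chosen with earlier results of these data known. Named genes are the members, the 6 further Polycomb genes of smallest p with Jarid2, Kdm6b and Cdkn2a, the 3 most alike genes for Ezh2, Bmi1 and Cbx7, and Mki67, Top2a and Ccna2. Other genes in the text were chosen after their values were seen. Deviations of same-numbered arrays from their group means correlated at 0.400, -0.009 and -0.195. Differently numbered arrays were not compared in this way, so these values cannot tell whether the numbers pair the samples.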

Additional observations from a re-analysis of the deposited data

How the results depend on the processing

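The counts over all genes, members and further Polycomb genes and the paralogue shifts were computed again in 19 other settings. So were the log2 fold changes of the 6 further genes of smallest p and of the members except Ezh1. The marker lists, the direction counts of the wider list and the other genes named were not. No member was called in 18 of these settings, and the number of members with a higher mean ran from 3 to 5. With array weights, limma called 1461 genes, among them 2 members and 5 further Polycomb genes. The members were Cbx2 at -0.83 and Suz12 at -0.56, with adjusted p of 0.0207 and 0.0436 in limma. In that fit sham 3 had by far the largest weight, 6.61, against 0.32 on sham 2 to 1.69 on SSA 1. The part of sham 3 in those calls was not tested. The number of genes called was 0 with the neqc background, with no background correction and with no filter, 3 with a median shift per array, 4 with the replicate block, and 0 to 4 without 1 array in turn. Genes with an unadjusted p under 0.05 numbered 492 with a median shift, 2067 with no filter on dim genes, 3583 with array weights and 439 to 1753 without 1 array in turn. With a median shift 28.5% of those genes were higher after SSA, against 55.8% in the main setting. The shift of Ezh2 relative to Ezh1 is void, since Ezh1 was not above background; for completeness, it was -0.16 without sham 2 and -0.16 to 0.43 without 1 array in turn. Without sham 2 Ezh2 stood at -0.077 and Phc1 at -0.0025. Without sham 1 Bmi1 stood at 0.078. Without 1 array in turn the values ran from -0.767 to 0.078 for Bmi1, -0.077 to 0.364 for Ezh2, -0.181 to 0.12 for Rnf2, -0.0052 to 0.424 for Cbx7 and -0.0025 to 0.209 for Phc1. Rnf2 stood at 0.33 with array weights, and at 0.12, 0.044 and 0.067 without SSA 3, sham 1 and sham 2. Cbx7 stood at -0.0051 without SSA 3 and at -0.0052 without sham 1. The causes of these moves were not tested. The other directions among these results held, with Cbx2 from -0.83 to -0.066 and the difference between Cbx2 and Cbx7 from -1.04 to -0.10. Pearson's r between Bmi1 and Cbx7 ran from -0.99 to -0.89. Signal over background limits Ezh1, Rnf2 and Cdkn2a, and Bmi1 on SSA 3 and sham 2.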
